A study of Mus musculus with 12 samples.

Results

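The chemokine genes Cxcl9, Cxcl10 and Cxcl11 and the gene of their shared receptor, Cxcr3, were examined in CT26 tumours of mice. CT26 is an established carcinoma line that arose in the colon of a BALB/c mouse. They were taken by gene symbol and are 4 of the 55415 gene entries of the deposited table. Bulk RNA sequencing covered 12 libraries in 4 groups of 3: tumours of untreated mice (control), of mice given Complex 1, of mice given radiation, and of mice given both (the combination). Going by the series title, Complex 1 is a platinum compound activated by X-rays. The labels give no dose, time, age or sex, do not say whether the sampled tumour lay inside the irradiated field, and do not state whether each library is a different animal. The p-values therefore measure the spread between these samples, which may be technical.

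CXCL9, CXCL10 and CXCL11 are small secreted chemokines that bind CXCR3, a receptor coupled to inhibitory G proteins on activated CD8 T cells, type 1 helper T cells and natural killer (NK) cells, and draw these cells into inflamed tissue. Cxcl9 is induced mainly by interferon gamma, whereas Cxcl10 and Cxcl11 also respond to type I interferons. In tumours, macrophages, dendritic cells, endothelial cells, fibroblasts and the cancer cells themselves can make them.

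The 3 ligand genes lie next to each other on the minus strand of chromosome 5 (mm39), within 44.1 kb. Cxcl9 (ENSMUSG00000029417) spans 92469206 to 92475938, Cxcl10 (ENSMUSG00000034855) spans 92494497 to 92496748, and Cxcl11 (ENSMUSG00000060183) spans 92507403 to 92513344. Cxcr3 (ENSMUSG00000050232) lies on the minus strand of chromosome X, 100775141 to 100777875. Cxcl10 and Cxcl11 lie inside the span of Art3, an ADP-ribosyltransferase gene on the plus strand. In the GENCODE M21 annotation 5.91% of the exonic bases of Cxcl10 and none of those of Cxcl11 are also exonic in Art3, which had 11 to 22 counts per library. On the plus strand, Gm2673 covers 41.7% of the exonic bases of Cxcl11, and it had 0 counts in all 12 libraries. The strand setting of the counting is not given in the sources used here, so reads of overlapping genes cannot be told apart, and the level of Cxcl11 is uncertain. Cxcl11 is also the ligand gene with a frameshift in C57BL/6 mice, the strain of the reference genome.

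The promoters of Cxcl9 and Cxcl10 are shown as a description, chosen after these ligand genes were seen to change to different extents in irradiated tumours. Whether the promoter sequences had a part in that difference was not tested. The windows have the following bounds. Each is the 250 bases before the RefSeq gene start, 5′ to 3′ on the gene's strand, in GRCm38.p6: chr5:92328080-92328329 for Cxcl9 and chr5:92348890-92349139 for Cxcl10, both on the minus strand. Capitals mark matches to the core of the interferon-stimulated response element (GAAA, any 2 bases, GAAA) and to the kB consensus, the motif of NF-kB, each searched on both strands together with the gamma-activated site (TTCNNNGAA).
Cxcl9: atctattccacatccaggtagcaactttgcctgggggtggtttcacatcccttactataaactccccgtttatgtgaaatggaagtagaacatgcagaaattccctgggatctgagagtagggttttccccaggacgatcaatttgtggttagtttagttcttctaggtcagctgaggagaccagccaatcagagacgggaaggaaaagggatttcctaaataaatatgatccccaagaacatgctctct
Cxcl10: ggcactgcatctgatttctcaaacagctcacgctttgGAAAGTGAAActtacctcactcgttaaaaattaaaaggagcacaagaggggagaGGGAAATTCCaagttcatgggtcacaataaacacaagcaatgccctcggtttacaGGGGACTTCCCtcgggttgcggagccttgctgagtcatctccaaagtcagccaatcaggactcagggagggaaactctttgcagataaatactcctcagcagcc
The Cxcl10 window held the response element core as GAAAGTGAAA, from -213 to -204 relative to the gene start. It also held kB matches from -159 to -150 and, as a pair of overlapping matches that share the bases from -103 to -95, from -104 to -94. The Cxcl9 window and the Cxcr3 window held none of these motifs as spelled. Looser spellings were not searched, so response elements spelled otherwise would be missed in any of the windows. Among 32851 promoter windows of the same length, 2.98% held the response element core, 7.02% the gamma-activated site and 7.25% the kB consensus. The table of promoters matched 3 of the 4 genes, Cxcl9, Cxcl10 and Cxcr3, so no window of Cxcl11 was searched. These matches are letters in a window, and no binding was measured.

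Levels were compared as FPKM (fragments per kilobase of exons, scaled to library size, computed by the authors from counts). In each of the 12 libraries the order was Cxcl9, then Cxcl10, then Cxcl11, then Cxcr3. Cxcl9 ranged from 22.05 to 68.62 FPKM and stood above 82.1% to 95.5% of the 13668 tested genes in its library. Cxcl10 ranged from 6.03 to 34.93 FPKM. Cxcl11 ranged from 0.89 to 5.24 FPKM and Cxcr3 from 0.24 to 0.95 FPKM, so the receptor transcript was rare in bulk tumour RNA. In bulk tissue, fewer cells of a type and less RNA per cell cannot be told apart.

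Total counts per library lay between 15601468 and 19112042. A pair of libraries stood apart from their groups in immune transcripts. Complex 1 replicate 3 had a summed level of 44.4 FPKM over 14 T cell markers, against 17.8 and 22.0 in the other Complex 1 libraries. Radiation replicate 2 had 11.6 FPKM, the lowest of all 12 libraries, against 41.7 and 39.5 in the other radiation libraries. Defining epithelial markers of the labelled colon carcinoma were low: Epcam reached at most 0.18 and Krt8 at most 0.67 FPKM, while Krt20 lay between 66.56 and 148.24 FPKM. B and plasma cell markers were near 0, with a sum over 6 genes of 4.62 FPKM in Complex 1 replicate 3 and at most 1.80 FPKM in the other libraries. Control replicate 2 also differed from all other libraries: it had 6 counts of Xist, the RNA of the inactive X chromosome in females, against 3027 or more, and 28 counts over 4 Y-linked genes, against at most 1. Without it the log2 change with radiation was 1.10 for Cxcl9, 2.04 for Cxcl10 and 1.92 for Cxcl11 (edgeR, adjusted p = 0.0398, 0.00865 and 0.0183). For Cxcr3, which is X-linked and was lowest in that library, it was 0.59 (edgeR, adjusted p = 0.466). The combination changes without it were 0.92, 2.08 and 2.12 for the ligands, which passed, and 0.78 for Cxcr3, which did not, and the part of this difference in the results was not otherwise tested.

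Radiation against control asked what radiation did without the compound. All 3 ligand genes rose, and 7.39% of all tested genes rose in this comparison. Cxcl10, the ligand that both types of interferon induce, stood at 6.03, 7.85 and 8.80 FPKM in control replicates 1 to 3, and at 24.52, 34.93 and 33.86 FPKM in radiation replicates 1 to 3. Every radiation library lay above every control library, a separation that was not counted over all tested genes, and the lowest was radiation replicate 1. The log2 fold change was 2.01 ± 0.30 (SE, edgeR quasi-likelihood test, Benjamini-Hochberg adjusted p = 0.00161), which is 4.04-fold and the 41st largest rise among 13668 genes.

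Cxcl11, the ligand with the highest affinity for CXCR3, was nearly the same in all control libraries, at 0.89, 0.97 and 0.92 FPKM. It was at 3.01, 3.75 and 3.69 FPKM in the radiation libraries, again without overlap. Its log2 fold change was 1.88 ± 0.33 (edgeR, adjusted p = 0.00399). Those libraries held 62 to 70 counts of Cxcl11 each in control and 205 to 270 after radiation.

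Cxcl9, the ligand of the interferon gamma response, rose less than the other ligands on the log2 scale. Its level was 23.86, 22.05 and 28.48 FPKM in control and 64.90, 37.23 and 68.62 FPKM in radiation replicates 1 to 3. The groups did not overlap, but radiation replicate 2 lay well below its group. The log2 fold change was 1.17 ± 0.24 (edgeR, adjusted p = 0.00887). Without radiation replicate 2 it was 1.40, and the 3 ligands passed with any single control or radiation library left out.

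Cxcr3 did not pass the level filter of at least 1 FPKM in at least 3 libraries, so it was tested in a fit of 16307 genes with at least 10 counts in at least 3 libraries, chosen after the data were seen. It stood at 0.44, 0.24 and 0.39 FPKM in control, from 14, 8 and 12 counts, and at 0.52, 0.55 and 0.87 FPKM after radiation, from 16, 18 and 28 counts. The lowest radiation library lay above the highest control library by less than the counting error of either: the exact Poisson 95% interval of 14 counts runs from 7.65 to 23.5 counts. The log2 fold change of the receptor was 0.80 ± 0.41 (edgeR, adjusted p = 0.231), with a 95% interval from -0.16 to 1.75, which includes both 0 and the change of Cxcl9.

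**Figure D1:**
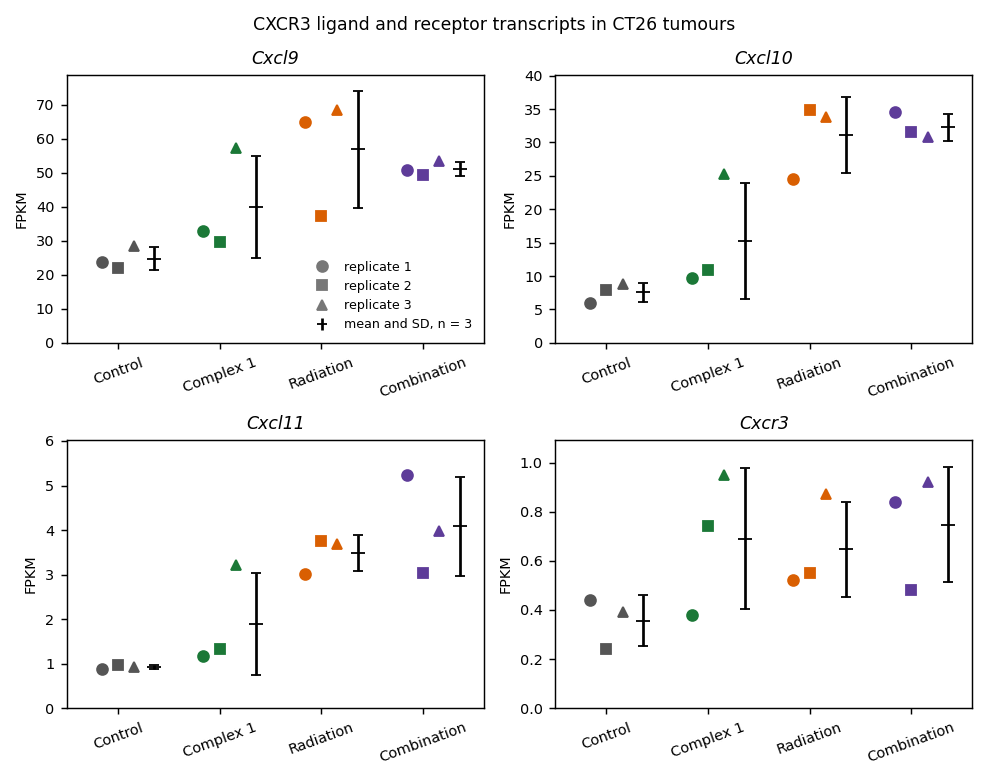
FPKM (vertical axes, linear from 0) of Cxcl9, Cxcl10, Cxcl11 and Cxcr3 in each library of the 4 groups; symbols mark the replicate and bars the mean and SD of 3 libraries. Cxcl10 sits between 24.52 and 34.93 FPKM in the 6 irradiated libraries and at 25.31 in Complex 1 replicate 3, against 6.03 to 10.96 in the other 5 non-irradiated libraries.

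The combination against control asked what radiation did together with Complex 1. All 3 ligand genes rose, beside 11.9% of all tested genes. Cxcl10 was at 34.53, 31.51 and 30.75 FPKM in combination replicates 1 to 3, with a log2 fold change of 2.05 ± 0.30 (edgeR, adjusted p = 0.000535). Cxcl11 was at 5.24, 3.03 and 3.97 FPKM, with replicate 1 the highest of all libraries, and changed by 2.09 ± 0.33 (edgeR, adjusted p = 0.000929). Cxcl9 was at 50.93, 49.28 and 53.43 FPKM, the tightest of the 4 groups, and changed by 1.00 ± 0.24 (edgeR, adjusted p = 0.011). No combination library overlapped a control library in any ligand, and the 3 ligands passed with any single library left out. Cxcr3, the receptor, was at 0.84, 0.48 and 0.92 FPKM, with a log2 fold change of 0.99 ± 0.41 (edgeR, adjusted p = 0.106).

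Averaged over both levels of Complex 1, all 3 ligands rose with radiation, where 13.3% of tested genes rose. The log2 changes were 0.75 ± 0.17 for Cxcl9, 1.53 ± 0.20 for Cxcl10 and 1.48 ± 0.23 for Cxcl11 (edgeR, adjusted p = 0.00618, 0.000238 and 0.000548). Cxcr3 had 0.45 ± 0.28 (edgeR, adjusted p = 0.274). Within the Complex 1 level alone, Cxcl9 had 0.34 ± 0.24 and did not pass (edgeR, adjusted p = 0.418).

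Complex 1 against control asked what the compound did alone. None of the 3 ligands passed edgeR's test, and DESeq2 called 0 as well. All 3 had an unadjusted p under 0.05 by edgeR, as did 1708 of the 13668 tested genes. In this comparison 0.717% of tested genes rose. Cxcl9 was at 32.80, 29.80 and 57.32 FPKM in Complex 1 replicates 1 to 3, Cxcl10 at 9.65, 10.96 and 25.31 FPKM, and Cxcl11 at 1.16, 1.32 and 3.22 FPKM. Every Complex 1 library lay above every control library in all 3 ligands. The closest values were 29.80 and 28.48 FPKM for Cxcl9, 9.65 and 8.80 for Cxcl10, and 1.16 and 0.97 for Cxcl11. For none of the comparisons with control was such separation counted over all tested genes. Complex 1 replicate 3 lay far above the other Complex 1 libraries, within or near the range of the irradiated tumours. The log2 fold changes were 0.66 ± 0.24 for Cxcl9, 0.99 ± 0.30 for Cxcl10 and 1.01 ± 0.34 for Cxcl11 (edgeR, adjusted p = 0.281, 0.165 and 0.233). Neutrophil markers moved with the compound: their summed level over 6 genes was 10.4 to 18.2 FPKM in control, 87.4 to 196 in Complex 1, 8.90 to 33.6 in radiation and 245 to 408 in the combination, and their part in the ligand values was not tested. Without Complex 1 replicate 3 the ligand changes were 0.31, 0.41 and 0.38, and without Complex 1 replicate 1 Cxcl10 passed, at 1.24 (edgeR, adjusted p = 0.0482). Cxcr3, from 12, 20 and 27 counts, was at 0.38, 0.74 and 0.95 FPKM and overlapped control (log2 0.90 ± 0.42, edgeR, adjusted p = 0.404).

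**Figure D2:**
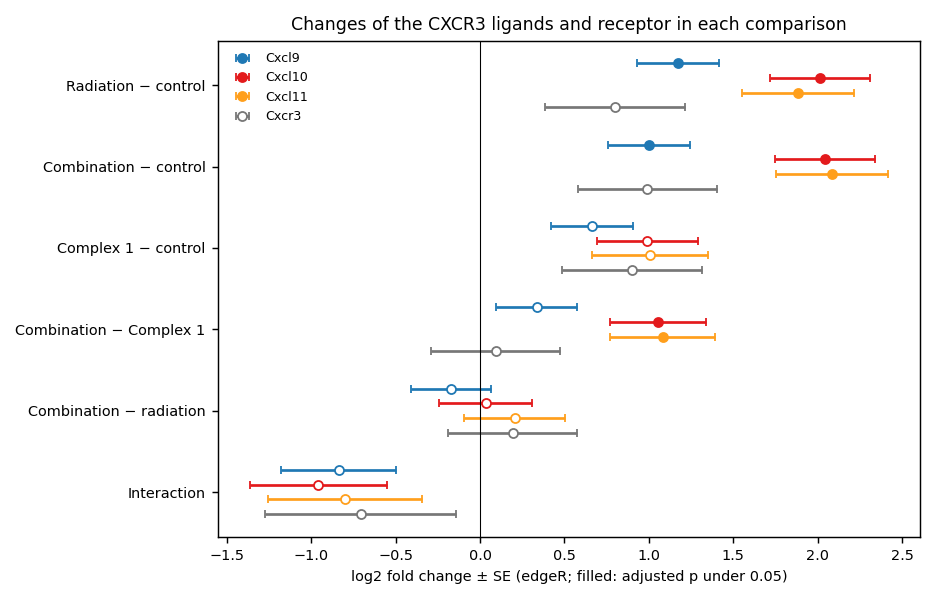
Log2 fold change (horizontal axis, point) with its SE (bar) from edgeR for the 4 genes in 5 comparisons between groups and for the interaction of Complex 1 and radiation; filled points have an adjusted p under 0.05. Cxcl10 and Cxcl11 lie near 2 in both comparisons of irradiated tumours with control, and Cxcl9 at 1.17 and 1.00.

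The combination against radiation asked what Complex 1 added to radiation. No ligand passed edgeR's test, none had an unadjusted p under 0.05, and DESeq2 called 0, while 0.615% of tested genes rose. Log2 changes were -0.17 ± 0.24 for Cxcl9, 0.03 ± 0.27 for Cxcl10 and 0.21 ± 0.30 for Cxcl11. The 95% intervals, computed with 8 residual degrees of freedom, ran from -0.72 to 0.38, from -0.60 to 0.66 and from -0.49 to 0.90. Changes within these bounds are not excluded by the data. Cxcr3 had 0.19 ± 0.38.

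The combination against Complex 1 asked what radiation added to the compound. Cxcl10 and Cxcl11 rose, by 1.05 ± 0.28 and 1.08 ± 0.31 (edgeR, adjusted p = 0.0323 and 0.045), where 4.73% of tested genes rose. Cxcl9 had 0.34 ± 0.24 (edgeR, adjusted p = 0.418). These calls rested on few libraries. Neither ligand passed without Complex 1 replicate 1 or 2 or without combination replicate 1 or 3, and without combination replicate 2 Cxcl11 alone passed. Adjusted p in these fits reached 0.13 for Cxcl10 and 0.164 for Cxcl11. Without Complex 1 replicate 3 all 3 ligands passed, at 0.69, 1.63 and 1.70.

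**Figure D3:**
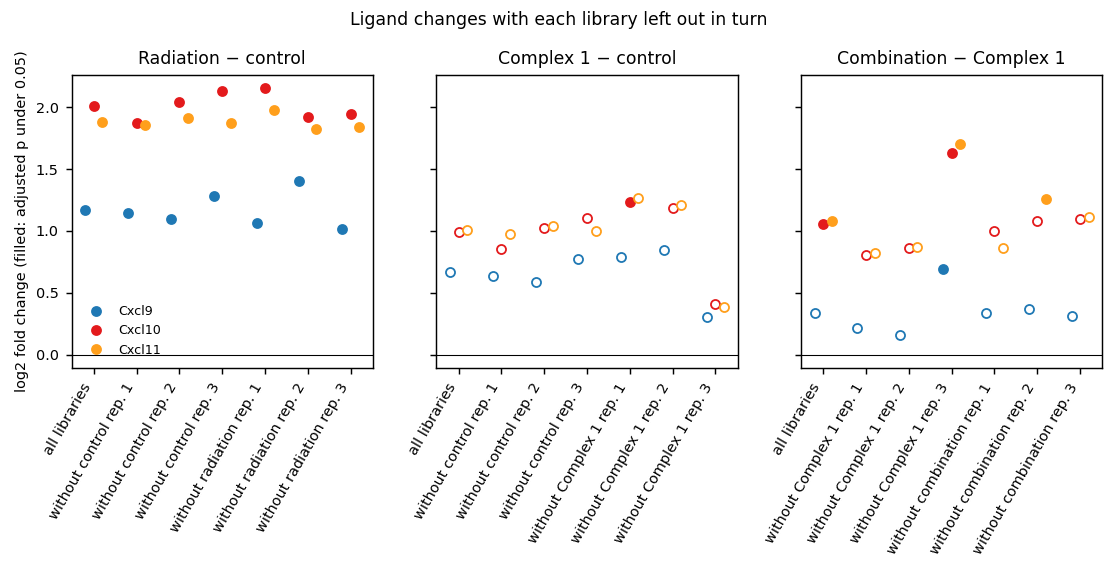
Log2 fold change (vertical axis) of the 3 ligands in all libraries and with each library of the compared groups left out, named on the horizontal axis; filled points have an adjusted p under 0.05 (edgeR). All points are filled for radiation against control, and the values of the other comparisons move most without Complex 1 replicate 3, to 0.31, 0.41 and 0.38 in Complex 1 against control.

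The interaction asked whether radiation and Complex 1 acted additively on the log2 scale. Its value was -0.84 ± 0.34 for Cxcl9, -0.96 ± 0.40 for Cxcl10 and -0.80 ± 0.45 for Cxcl11. None passed edgeR's test (adjusted p = 0.997 for each), and DESeq2 called 0. By edgeR, 2 of the 3 had an unadjusted p under 0.05 (0.029 for Cxcl9 and 0.0339 for Cxcl10), as did 601 of the 13668 tested genes. Among all tested genes 0% passed in either direction. Without Complex 1 replicate 3 the values were -0.48, -0.38 and -0.18.

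The makeup of the ligand transcripts differed between irradiated and non-irradiated tumours. The ratio of Cxcl10 to Cxcl9, in FPKM within a library, was 0.253, 0.356 and 0.309 in control and 0.294, 0.368 and 0.442 in Complex 1 replicates 1 to 3. It was 0.378, 0.938 and 0.493 in radiation and 0.678, 0.639 and 0.576 in combination replicates 1 to 3. Within each level of Complex 1 no irradiated library overlapped a non-irradiated one, and radiation replicate 2 was the only library with nearly equal levels of both transcripts.

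Averaged over both levels of Complex 1, the Cxcl10 to Cxcl9 ratio was 1.79-fold higher with radiation. An exact permutation test over 400 assignments, two-sided, gave p = 0.005, the smallest they can give, and an adjusted p of 0.01 over the 4 ratios tested. The log2 difference was 0.88 without and 0.79 with the compound, and the first was 0.51 without radiation replicate 2. The Cxcl11 to Cxcl9 ratio was 1.71-fold higher (exact permutation test, p = 0.005, adjusted p = 0.01), and its log2 difference without the compound was 0.75, or 0.41 without radiation replicate 2. With single libraries left out, the averages over both levels were 0.65 to 0.98 for Cxcl10 to Cxcl9 and 0.61 to 0.89 for Cxcl11 to Cxcl9. The Cxcl11 to Cxcl10 ratio had a log2 difference of -0.06 (exact permutation test, p = 0.615, adjusted p = 0.82). The larger radiation changes of Cxcl10 and Cxcl11 were known from earlier results of these data, so these tests are no independent evidence of the direction.

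**Figure D4:**
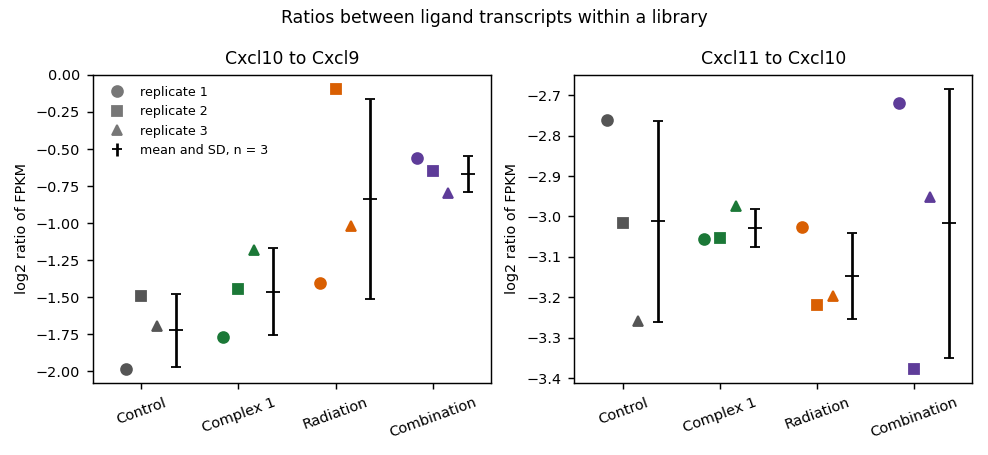
Log2 ratio of FPKM within a library (vertical axes, which do not start at 0) of Cxcl10 to Cxcl9 and of Cxcl11 to Cxcl10, by group; symbols mark the replicate and bars the mean and SD of 3 libraries. The first ratio averages -0.75 in the 6 irradiated and -1.59 in the 6 non-irradiated libraries, and the second averages -3.08 and -3.02.

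T cell marker transcripts moved with Cxcl9 in the libraries that stood apart. Radiation replicate 2, with 11.6 FPKM over the 14 T cell markers, had the lowest Cxcl9 of the radiation group, 37.23 FPKM, beside the highest Cxcl10 of all libraries, 34.93 FPKM. Complex 1 replicate 3, with 44.4 FPKM of T cell markers, was the highest of its group in all 3 ligands. The summed T cell markers were between 19.6 and 22.2 FPKM in control, and between 39.1 and 52.5 FPKM in the combination. Of 11 tested T cell markers, 1 rose with radiation (Lck, log2 0.85) and 4 with the combination, beside 7.39% and 11.9% of all tested genes. With radiation, 1 of 11 is near that share. Median log2 changes of the markers were 0.63 and 1.09, against -0.01 over all tested genes in both comparisons. Cd3e and Cd8a, which mark all T cells and cytotoxic T cells, had 0.69 ± 0.52 and 0.42 ± 0.51 with radiation and 1.02 ± 0.52 and 0.81 ± 0.51 with the combination, and neither passed edgeR's test. The part of T cell content in the ligand changes was not tested.

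**Figure D5:**
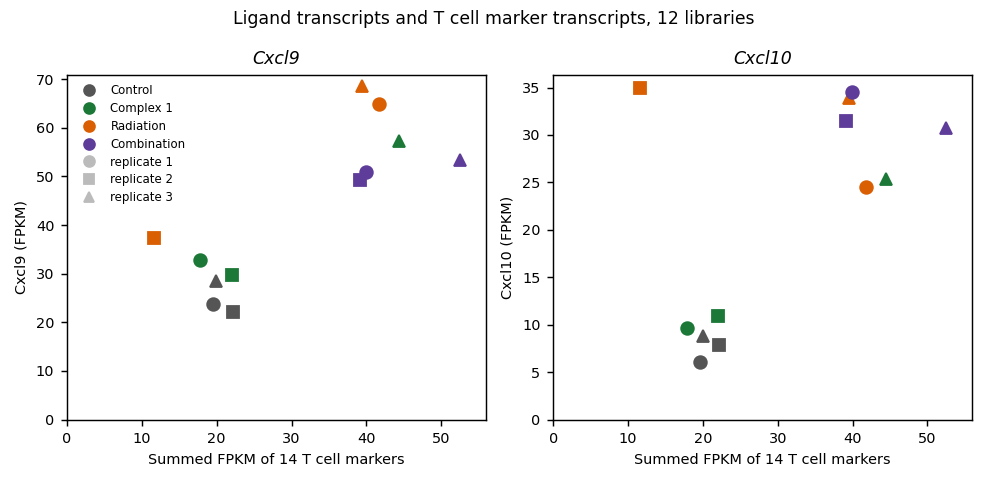
Cxcl9 and Cxcl10 (vertical axes, FPKM from 0) against the summed FPKM of 14 T cell markers (horizontal axis) in the 12 libraries, with the group as colour and the replicate as symbol. Radiation replicate 2, at 11.6 on the horizontal axis, lies at 37.23 for Cxcl9 and at 34.93 for Cxcl10.

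The receptor transcript was set against Cd3e, a subunit of the T cell receptor complex, within each library. The Cxcr3 to Cd3e ratio of FPKM was 0.203 to 0.53 in control libraries, 0.409 to 1.09 with Complex 1, 0.219 to 1.34 with radiation and 0.316 to 0.452 with both. The groups overlapped widely. The log2 difference with radiation was 0.50 without the compound and -0.72 with it, and their mean was -0.11 (exact permutation test, p = 0.835, adjusted p = 0.835). Without radiation replicate 2 the first was -0.23, without control replicate 2 it was 0.11, and without Complex 1 replicate 2 the second was -0.27. The receptor counts of 8 to 30 per library limit this ratio.

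For NK cells, the other class of cells that carry CXCR3, the sum of the markers was higher in every irradiated library than in every other library. Summed over 8 genes, control libraries had 15.7 to 38.9 FPKM, Complex 1 libraries 30.2 to 51.6, radiation libraries 64.4 to 88.1 and combination libraries 106 to 110. Of 6 tested, 4 rose with radiation and 6 with the combination, beside 7.39% and 11.9% of all tested genes. The medians were 1.14 and 1.60. Ncr1, the NKp46 receptor gene of NK cells, rose by 1.24 ± 0.26 and 1.74 ± 0.26, and Gzma, a granzyme gene, by 2.06 ± 0.32 and 2.46 ± 0.32 (edgeR). Gzma and Prf1, the perforin gene, made up most of the sum, with means of 37.8 and 24.0 FPKM in the radiation group. Cytotoxic T cells can also express both genes, so the sum is not particular to NK cells. Klrd1 overlapped between radiation and control, at 4.78 to 10.01 against 3.96 to 5.73 FPKM. Klre1 and Prf1 also overlapped, while Ncr1, Klrk1 and Gzma did not, a separation that was not counted over all tested genes. The part of NK cells in the Cxcr3 values was not tested.

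Cells that can make the ligands were followed by their markers. Of 12 macrophage and monocyte markers, 8 rose with radiation and 9 with the combination (medians 0.73 and 0.76), beside 7.39% and 11.9% of all tested genes. The sum of these markers was 564 to 620 FPKM in control libraries, 739 to 824 with Complex 1, 931 to 1043 with radiation and 993 to 1073 with both. Adgre1, the F4/80 gene of macrophages, rose by 1.35 ± 0.14 and 1.53 ± 0.14 (edgeR). For type 1 conventional dendritic cells, a cell type known for Cxcl9 and Cxcl10 in tumours, 3 of 8 markers passed the level filter. Of these 3, 1 rose with radiation and 3 with the combination, beside 7.39% and 11.9% of all tested genes. Irf8, a transcription factor these cells need, rose by 0.78 ± 0.18 with radiation and 1.03 ± 0.18 with the combination, and also marks other myeloid and lymphoid cells. Wdfy4, which these cells need for cross-presentation, and Cd24a had 0.27 ± 0.14 and -0.08 ± 0.33 with radiation and rose by 0.58 ± 0.14 and 1.45 ± 0.30 with the combination (edgeR). Cd24a is not particular to these cells. Its mean was 0.77 FPKM in control, 1.4 in Complex 1, 0.74 in radiation and 2.17 in the combination. The defining markers of type 1 conventional dendritic cells were scarce, with Xcr1 at 0.26 to 0.93 FPKM, Clec9a at 0.26 to 0.48 and Batf3 at 0.18 to 0.97. In the fit with the count filter, Xcr1, Clec9a and Batf3 had 0.01, -0.03 and 1.16 with radiation and 0.82, 0.01 and 0.97 with the combination. Zbtb46 and Flt3, also below the level filter, had 0.09 and -0.28 with radiation and -0.06 and 0.19 with the combination. None of these genes passed (edgeR, lowest adjusted p = 0.119 with radiation and 0.122 with the combination). None of 4 endothelial markers passed edgeR's test with radiation (median 0.01), 0 had an unadjusted p under 0.05 and DESeq2 called 0. None of 7 fibroblast markers passed edgeR's test with radiation (median 0.27), and DESeq2 called 1. By edgeR, 2 had an unadjusted p under 0.05, as did 3885 of the 13668 tested genes. With the combination 1 of the 7 rose, near the 11.9% of all tested genes. This was Dcn, a matrix proteoglycan gene, which rose by 1.05 ± 0.13 against control. It also rose by 0.73 ± 0.13 against radiation and 0.66 ± 0.13 against Complex 1 (edgeR, adjusted p = 0.000204, 0.0216 and 0.00777 in that order). The part of any of these cells in the ligand levels was not tested.

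Upstream of the ligands, interferon gamma itself was variable. Ifng, the cytokine of activated T and NK cells, was at 1.07 ± 0.63 FPKM in control, 1.57 ± 1.46 in Complex 1, 1.95 ± 1.02 in radiation and 2.85 ± 0.67 in the combination (SD, n = 3). Its log2 fold change was 0.83 ± 0.60 with radiation and 1.36 ± 0.59 with the combination (edgeR, adjusted p = 0.401 and 0.118). Of the 8 genes of interferon gamma signalling, 2 rose with radiation and 5 with the combination, beside 7.39% and 11.9% of all tested genes. The medians were 0.52 and 0.60. Irf1, the transcription factor that interferon gamma induces, rose by 0.94 ± 0.23 with radiation and 0.92 ± 0.23 with the combination. Ifngr1, a receptor subunit, rose by 0.39 ± 0.09 and 0.35 ± 0.09. Socs1, the feedback inhibitor, rose by 0.84 ± 0.24 with the combination.

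For type I interferon signalling, 4 of 7 tested genes rose with radiation and 4 with the combination, beside 7.39% and 11.9% of all tested genes. The medians were 0.29 and 0.41. Irf7, the factor that amplifies type I interferon production, went from 45.11 ± 10.01 FPKM in control to 142 ± 7.76 in radiation and 156 ± 10.1 in the combination (SD, n = 3), and rose by 1.62 ± 0.30 and 1.74 ± 0.30. In Complex 1 it was at 57.4 ± 34.4 FPKM. Stat2 and Irf9, which form the factor that binds the interferon-stimulated response element, rose by 1.03 ± 0.26 and 0.52 ± 0.14 with radiation. The interferon genes themselves were near the counting floor: Ifnb1 lay between 0.07 and 0.73 FPKM, and Ifna1, Ifna2 and Ifna4 had no counts in at least 10 of 12 libraries.

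Among genes that induce interferon gamma, 3 of 6 tested rose with radiation and all 6 with the combination, beside 7.39% and 11.9% of all tested genes. The medians were 0.97 and 1.27. Il18 and Il15, cytokine genes of myeloid cells that act on T and NK cells, rose by 1.43 ± 0.28 and 1.07 ± 0.13 with radiation. Tbx21, the T-bet gene, which drives Cxcr3 transcription in T cells, had 0.88 ± 0.42 with radiation (edgeR, adjusted p = 0.187) and rose by 1.23 ± 0.41 with the combination (edgeR, adjusted p = 0.0494). Eomes, the related factor of NK and memory T cells, rose by 1.64 ± 0.32 with radiation and 2.06 ± 0.32 with the combination. Of the 6 NF-kB genes, none passed edgeR's test with radiation, 0 had an unadjusted p under 0.05 and DESeq2 called 0. With the combination 1 of the 6 rose (median of the 6 genes 0.175), near the 11.9% of all tested genes. This was Nfkbia, the inhibitor gene that NF-kB induces, which rose by 1.05 ± 0.18.

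Of 3 tested genes that limit or share the ligands, 0 passed edgeR's test with radiation, 0 had an unadjusted p under 0.05 and DESeq2 called 0. With the combination 1 of the 3 rose, beside 11.9% of all tested genes. Ackr3, an atypical receptor that takes up CXCL11 and CXCL12, had 0.00 ± 0.10 with radiation and rose by 0.32 ± 0.10 with the combination (edgeR, adjusted p = 0.0323). Pf4, which encodes another ligand of CXCR3, had 0.04 ± 0.37 and 0.37 ± 0.37. Dpp4, the gene of a protease that trims these ligands, was below the level filter at 0.10 to 0.83 FPKM. In the fit with the count filter it had 1.32 ± 0.46 with radiation (edgeR, adjusted p = 0.0787) and rose by 1.80 ± 0.45 with the combination (edgeR, adjusted p = 0.0127).

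Downstream of the receptor, 4 of 8 tested signalling genes rose with radiation and the same number with the combination, beside 7.39% and 11.9% of all tested genes. The medians were 0.23 and 0.43. Dock2 and Rac2, which drive migration of blood cells, rose by 0.82 ± 0.15 and 0.92 ± 0.19 with radiation. Both are expressed in all leukocytes.

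Other chemokines of T cells rose in part. Of 13 tested genes 4 rose with radiation and 8 with the combination, beside 7.39% and 11.9% of all tested genes. The medians were 0.64 and 1.09. Cxcl16, the ligand gene of CXCR6, rose by 0.63 ± 0.13 with radiation and 0.71 ± 0.13 with the combination, and Cxcl12, the ligand gene of CXCR4, by 0.83 ± 0.22 and 1.28 ± 0.22. Radiation and combination were each compared with the same control libraries.

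Of the genes around the ligand cluster, most did not pass the test. Of 6 tested neighbours on chromosome 5, Naaa, a lysosomal amidase gene, rose by 0.64 ± 0.17 with radiation, and Nup54, a nuclear pore gene, fell by 0.29 ± 0.07 on the log2 scale (edgeR, adjusted p = 0.026 and 0.0181). With the combination Naaa rose by 0.97 ± 0.17 and Nup54 fell by 0.31 ± 0.07. Rises made up 7.39% of tested genes with radiation and 11.9% with the combination. Falls made up 5.85% of tested genes with radiation and 10% with the combination. The median over the 6 genes was 0.05 with radiation.

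The genes whose pattern was most like each ligand were found among 11207 named, tested genes by Pearson's r of log2(FPKM + 1) over the 12 libraries, as a description. For Cxcl9 these were Irf1 (0.952), Serpina3f (0.949), Tlr6 (0.948), Nlrc5 (0.945) and Serpina3g (0.943). For Cxcl10 they were Lgals3bp (0.984), Perm1 (0.981), Ch25h (0.977), Ifi44 (0.976) and Grn (0.974). Cxcl11 was most like Rasa4 (0.967), Rnf19b (0.966), Ctss (0.966), Cd200r4 (0.965) and Itgb2 (0.965). The 12 points share libraries, depth and the 4 group means, and the genes compared share them too.

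With the group means removed, so that only differences among libraries of a group remained, the lists changed. Cxcl9 was then most like Nlrc5 (0.984), the transactivator gene of MHC class I, Trim56 (0.981), Gimap3 (0.977), a lymphocyte GTPase gene, Cyfip2 (0.973) and Whamm (0.972). Cxcl10 was most like Usp18 (0.966), the protease gene that removes ISG15, Slfn2 (0.954), Irf7 (0.953), Tor3a (0.946) and Ifit1bl1 (0.943). Cxcl11 was most like Trim30d (0.922), Bst1 (0.92), Cd40 (0.92), Daxx (0.897) and Ly6i (0.886). For Cxcr3, at 8 to 30 counts, the nearest genes reached 0.883 (Rhog) over all libraries and 0.93 (Gna15) with group means removed. These values include Complex 1 replicate 3 and radiation replicate 2, which lay farthest from their group means in Cxcl9. No r was computed without them.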

How the data were processed

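RNA was sequenced from CT26 tumour tissue in 12 libraries, 3 per group; per the labels, total RNA was used with the NEB Next Ultra kit. STAR 2.5.3a, HTSeq 2.0.1, DESeq2 and build mm39 are named in the submitters' processing notes, without their roles. The deposited table holds raw counts per gene, as whole numbers, and FPKM that the authors derived from them; recomputing FPKM from counts and exonic lengths gave the deposited values within 0.005. Totals were 15601468 to 19112042 counts, and 1492 entries with a gene ID but no symbol held 0.0579% to 0.0706% of them and stayed in the fits.

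Counts were scaled by TMM and tested with edgeR 4.0.16 (R 4.3.3, quasi-likelihood, a mean per group over all 12 libraries) for 13668 genes with at least 1 FPKM in at least 3 libraries, in 7 comparisons. Benjamini-Hochberg adjusted p under 0.05 passed. Cxcr3 was below that filter and was tested with a filter of 10 counts. SE is the log2 change divided by the root of F. Ratios of FPKM were compared by exact permutation within levels of Complex 1 (scipy 1.17.1 for the counting intervals). Intervals and floors cover counting error only. On simulated counts for radiation against control (13668 genes), edgeR called 73 of 100 genes changed 2-fold, 43 of 100 changed 1.5-fold and 5 of 13468 unchanged genes.

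Named genes are the 4 members, members of 18 lists (up to 4 per list with the smallest p with radiation, plus 12 fixed genes) and the 5 genes most like each member. Members and lists were chosen with earlier results of these data known. Some genes lie outside that rule and were chosen after their values were seen. These are marker and interferon genes given only by their range (Epcam, Krt8, Ifnb1, Ifna1, Ifna2, Ifna4) and the markers Clec9a, Zbtb46, Flt3, Klrd1 and Klre1. The others are Art3, Gm2673, Xist and the Y-linked Ddx3y, Eif2s3y, Uty and Kdm5d. Alternatives were DESeq2 1.42.0, median-ratio and library-total scaling, limma 3.58.1 on log2(FPKM + 1) or with 0.1, no filter, only the groups compared, robust estimation, a replicate block and each library left out. Gnai3 was not used here. Results for some genes of the lists are not reported here.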

Additional observations from a re-analysis of the deposited data

How the results depend on the processing

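All 3 ligands passed in radiation against control, in the combination against control and in radiation averaged over both levels of Complex 1 under every alternative run. Left-out libraries gave 3 passing ligands at the lowest and the highest in these comparisons. In the combination against Complex 1 the main number was 2; it was 0 with robust estimation and 0 with only the groups compared, and ran from 0 to 3 with single libraries left out. In Complex 1 against control it was 3 with no filter on low values and ran from 0 to 1 with single libraries left out (0 with all), and in the interaction it was 2 with no filter. Over all genes, DESeq2 called 326 in Complex 1 against control, 187 in the combination against radiation and 6 in the interaction, and the fit of only the groups compared called 45 in Complex 1 against control. Single libraries left out gave 865 to 1678 genes in radiation against control, 4 (without control replicate 2) to 236 (without Complex 1 replicate 1) in Complex 1 against control, 25 to 72 in the combination against radiation and 582 to 1884 in the combination against Complex 1. The fit without a filter tested 31727 genes and called 803 genes in Complex 1 against control, against 111 with the filter, 529 against 89 in the combination against radiation, 2285 against 1364 in the combination against Complex 1, and 163 against 0 in the interaction; the cause was not tested. Values under other settings that turned direction belong to differences that did not pass. With single libraries left out, Cxcl10 in the combination against radiation ran from -0.12 to 0.12, Cxcl11 from -0.0191 to 0.38 and Cxcr3 in the combination against Complex 1 from -0.20 to 0.40; the log2 difference of the Cxcl11 to Cxcl10 ratio ran from -0.14 to 0.0276 and that of Cxcr3 to Cd3e from -0.47 to 0.18; the causes were not tested. Without Complex 1 replicate 3 and radiation replicate 2 together, chosen after seeing the data, the numbers of passing ligands were 3 in radiation against control, 3 in the combination against control, 3 in the combination against Complex 1 and 0 in Complex 1 against control.

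The replicate numbers of the labels did not pair the libraries: 4 of 18 same-numbered pairs deviated together with r over 0.1, and 4 of 12 libraries were most like their own number. With a replicate block, 3 ligands passed in radiation against control and 2 in the combination against Complex 1, as without it, and it changed no call of the 4 genes; over all genes 1894 passed with the block in radiation against control and 1810 without. Depth limits Cxcr3 most, at 8 to 30 counts a library.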
